A study of Homo sapiens with 10 samples.

Results

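The genes described here are 48 human genes that carry out DNA replication and mitosis, followed in 2 cell lines of Group 3 medulloblastoma, a childhood tumour of the cerebellum. They were chosen by symbol, from those that build, fire and copy replication origins, supply nucleotides, drive the cell into S phase and mitosis, and move and separate the chromosomes, together with the transcription factors FOXM1 and MYBL2. All 48 were found among the 57820 gene identifiers of each deposited count table, and all 48 were among the 16006 genes with enough reads to be tested. The lowest count of any member in any library was 11, for CCNE2, and the other 47 members had at least 34 counts in every library.

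The study targeted CRX, which encodes a homeodomain protein that drives photoreceptor and pineal genes, with a doxycycline-inducible short hairpin RNA in the vector Tet-pLKO-puro, in the established lines D425 and HD-MB03. D425 was represented by 2 libraries of parental cells, 1 of cells with the empty vector and 3 labelled shCRX. For HD-MB03 there were 2 libraries labelled shCRX, 1 of empty-vector cells and 1 of parental cells. The transduced cells were stable polyclonal populations, so no result rests on 1 clone, and the treatment given in the labels for all 10 libraries was doxycycline at 4 µg/ml for 72 h, in medium with serum. A pair of hairpins was used, and which hairpin a given library carries is not stated in the labels. Parental and vector libraries served together as the controls of a line, so D425 was compared as 3 against 3 libraries and HD-MB03 as 2 against 2. Separate cultures are not named for libraries of the same group, so a p-value here weighs a difference against the spread of these samples, which may be technical only.

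DNA replication begins when origins are licensed: CDC6 and CDT1 load the ring-shaped MCM2 to MCM7 helicase onto chromatin in G1 phase, and the helicase is later switched on with CDC45 and the GINS complex. Genes for these steps are switched on together before S phase by E2F transcription factors, whereas genes of mitosis peak later, in G2 phase, and are switched on by the MuvB complex with MYBL2 (B-Myb) and FOXM1 at a short promoter word known as the cell cycle genes homology region, CHR, often beside CCAAT boxes that bind NF-Y. In tumours, transcripts of both groups are widely read as a proliferation signature, and MKI67 encodes the antigen by which pathologists count dividing cells. In RNA from a bulk culture, a smaller share of dividing cells and less RNA per dividing cell cannot be told apart.

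The promoters of 39 of the 48 members were matched in RefSeq (GRCh38.p14), each as 250 bases before to 50 bases after the start. Those printed here, 5′ to 3′ on the strand of the gene, belong to the members with the lowest p under shCRX in each line that have an entry (CDT1 in D425, CDC20 and CDK1 in HD-MB03) and, for the words they hold, to MCM6 and CCNB2. Capitals mark the words searched on both strands, which were TTTCCCGC, TTTCGCGC, TTTGCCGC and TTTGGCGC for E2F, TTTGAA and TTTAAA for CHR, and CCAAT for the CCAAT box.
CDT1 (chr16:88803539-88803838, plus strand): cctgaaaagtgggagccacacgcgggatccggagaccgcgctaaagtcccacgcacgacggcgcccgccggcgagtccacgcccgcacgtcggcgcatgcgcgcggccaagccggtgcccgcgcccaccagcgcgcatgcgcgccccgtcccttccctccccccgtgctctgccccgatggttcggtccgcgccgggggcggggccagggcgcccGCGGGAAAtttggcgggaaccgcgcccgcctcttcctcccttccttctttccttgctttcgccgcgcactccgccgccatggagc
MCM6 (chr2:135876394-135876693, minus strand): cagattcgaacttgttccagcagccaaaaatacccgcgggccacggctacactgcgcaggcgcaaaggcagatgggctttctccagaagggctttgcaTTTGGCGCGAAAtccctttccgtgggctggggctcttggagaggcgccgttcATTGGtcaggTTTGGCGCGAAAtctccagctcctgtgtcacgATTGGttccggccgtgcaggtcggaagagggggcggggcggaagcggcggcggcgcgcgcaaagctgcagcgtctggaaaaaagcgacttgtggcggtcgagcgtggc
CDK1 (chr10:60778081-60778380, plus strand): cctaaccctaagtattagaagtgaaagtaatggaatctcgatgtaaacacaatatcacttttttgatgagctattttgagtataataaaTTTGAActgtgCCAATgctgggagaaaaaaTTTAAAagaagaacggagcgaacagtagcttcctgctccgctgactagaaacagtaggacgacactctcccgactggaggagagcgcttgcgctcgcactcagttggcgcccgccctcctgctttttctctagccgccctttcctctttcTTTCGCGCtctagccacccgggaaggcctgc
CDC20 (chr1:43358731-43359030, plus strand): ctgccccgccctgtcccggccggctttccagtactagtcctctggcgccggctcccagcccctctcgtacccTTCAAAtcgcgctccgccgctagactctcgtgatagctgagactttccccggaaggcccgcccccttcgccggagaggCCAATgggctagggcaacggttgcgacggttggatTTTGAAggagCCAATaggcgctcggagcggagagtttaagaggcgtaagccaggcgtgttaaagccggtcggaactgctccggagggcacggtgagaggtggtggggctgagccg
CCNB2 (chr15:59104896-59105195, plus strand): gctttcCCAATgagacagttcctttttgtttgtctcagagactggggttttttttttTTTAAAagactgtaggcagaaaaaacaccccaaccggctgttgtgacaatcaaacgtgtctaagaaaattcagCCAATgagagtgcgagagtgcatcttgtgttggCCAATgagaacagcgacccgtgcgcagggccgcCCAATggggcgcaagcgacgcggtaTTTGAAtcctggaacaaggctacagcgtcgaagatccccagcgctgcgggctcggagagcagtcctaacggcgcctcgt

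An E2F word was present in 13 of 22 promoters of replication and S-phase entry genes (59.1%), in 1 of 16 promoters of mitosis genes (6.25%), that of CDK1, and in 3.33% of all 27305 promoters. A CHR word was present in 3 of the 22 (13.6%), in 13 of the 16 (81.2%) and in 24.3% of all promoters. CCAAT was present in 14 of 22 (63.6%), in 14 of 16 (87.5%) and in 35.7% of all. In MCM6 the capitals hold 4 E2F words in 2 overlapping pairs, since TTTGGCGC on the printed strand runs into GCGCGAAA, which is TTTCGCGC on the other strand. CDC20 holds CHR words 178 and 65 bases before the start, and CCNB2 holds them 193 and 29 bases before it. A match of letters is a description of the promoter and not a bound site.

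CRX itself fell in the D425 libraries labelled shCRX. Its level in D425 was 47.5 and 29.7 CPM (counts per M reads of the effective library size, where M stands for mega) in the parental libraries, 64.9 in the vector library and 20.3, 20.9 and 25.3 in shCRX libraries 1, 2 and 3. In HD-MB03 the level was 12.5 and 12.3 CPM in the parental and vector libraries and 27.7 and 23.5 in the libraries labelled shCRX, so the latter went against the label (log2 fold change 1.04 ± 0.36, SE, edgeR adjusted p = 0.174). The D425 log2 fold change was -1.10 ± 0.26 (SE, edgeR quasi-likelihood adjusted p = 0.0436) and was no longer called in 17 of 23 alternative analyses. Counted reads ran from 1.96 to 18.06 M per library, and 3 counts corresponded to 0.166 to 1.53 CPM. In the HD-MB03 parental and vector libraries, the shallowest, 30.9% and 26.4% of reads did not align, against 4.54% to 7.99% in the other 8. Library numbers in the deposited tables ran from 20 to 62 in D425 shCRX and HD-MB03 controls and from 110 to 136 in D425 controls and HD-MB03 shCRX, so within a line the number set and the arm cannot be told apart. The summed level of the Group 3 classifier genes was 565 to 1366 CPM in D425 and 1452 to 2276 in HD-MB03, that of the Group 4 genes 2.69 to 12.3, that of the SHH genes 42.8 to 112, nearly all from PDLIM3, and that of the WNT genes 2.90 to 592, nearly all from TNC. IMPG2 made up most of the Group 3 sum, NPR3 and EYA4 were at or near 0 in most libraries, MAB21L2 was at or near 0 in HD-MB03, and ATOH1 and WIF1 were at 0 in all 10.

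Replication genes were expressed over a wide range of levels in both lines, and the helicase subunits held the same order in each. Per length of exon (RPKM, CPM divided by exon length in kilobases), MCM7 stood at 115 ± 45.5 in D425 (SD, n = 6) and 183 ± 44.3 in HD-MB03 (SD, n = 4), and MCM3 at 84.4 ± 31.1 and 143 ± 4.76. MCM2 and MCM6 came next, at 49.04 ± 21.6 and 46.1 ± 18.5 RPKM in D425 and at 65.6 ± 13.4 and 62.5 ± 1.81 in HD-MB03, where they differed by less than the SD of MCM2 but by more than that of MCM6. MCM4 stood at 33.3 ± 15.9 and 58.9 ± 3.24, and MCM5 was lowest of the ring, at 21.7 ± 10.7 and 27.3 ± 8.45 RPKM. The 6 products form a ring with 1 copy of each.

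Among all members the highest level per length was that of PCNA, the sliding clamp that tethers DNA polymerase, at 144 ± 54.8 RPKM in D425 and 244 ± 24.3 in HD-MB03 (SD, n = 6 and n = 4). TPX2, which nucleates spindle microtubules and activates Aurora A, was second in D425 with 119 ± 26.0 RPKM. Lowest was CCNE2, cyclin E2, at 0.745 ± 0.293 and 1.56 ± 0.205 RPKM, below its paralog CCNE1 at 5.86 ± 2.27 and 9.68 ± 1.82. These values use exon lengths of another annotation release than the one counted, so levels of different genes are approximate.

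No replication or mitosis gene among the members passed the test under shCRX in either line. Of 48 members 0 were called by edgeR (quasi-likelihood, adjusted p under 0.05) in D425, where 2.97% of the 16006 genes tested were called, and 0 in HD-MB03, where 1.51% were. In the mean of the lines 0 of 48 were called (background 0.225%), and for the difference of the effects between the lines 0 of 48 (background 4.16%). At an unadjusted p under 0.05 the counts were 1 in D425 (background 17.3%), 1 in HD-MB03 (17.2%), 1 in the mean (13.2%) and 2 for the difference (21.2%), and DESeq2 and limma-voom called 0 members in each. With so few adjusted calls over all genes, a count of 0 among 48 is near the background. The unadjusted counts lay below the background shares, and that gap was not tested. The median log2 fold change of the members was 0.05 in D425 (27 of 48 positive) and 0.04 in HD-MB03 (27 of 48 positive), beside medians of 0.02 and 0.10 over all genes tested. The D425 median moved to -0.37 without shCRX library 2 and to 0.29 without shCRX library 1.

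**Figure D1:**
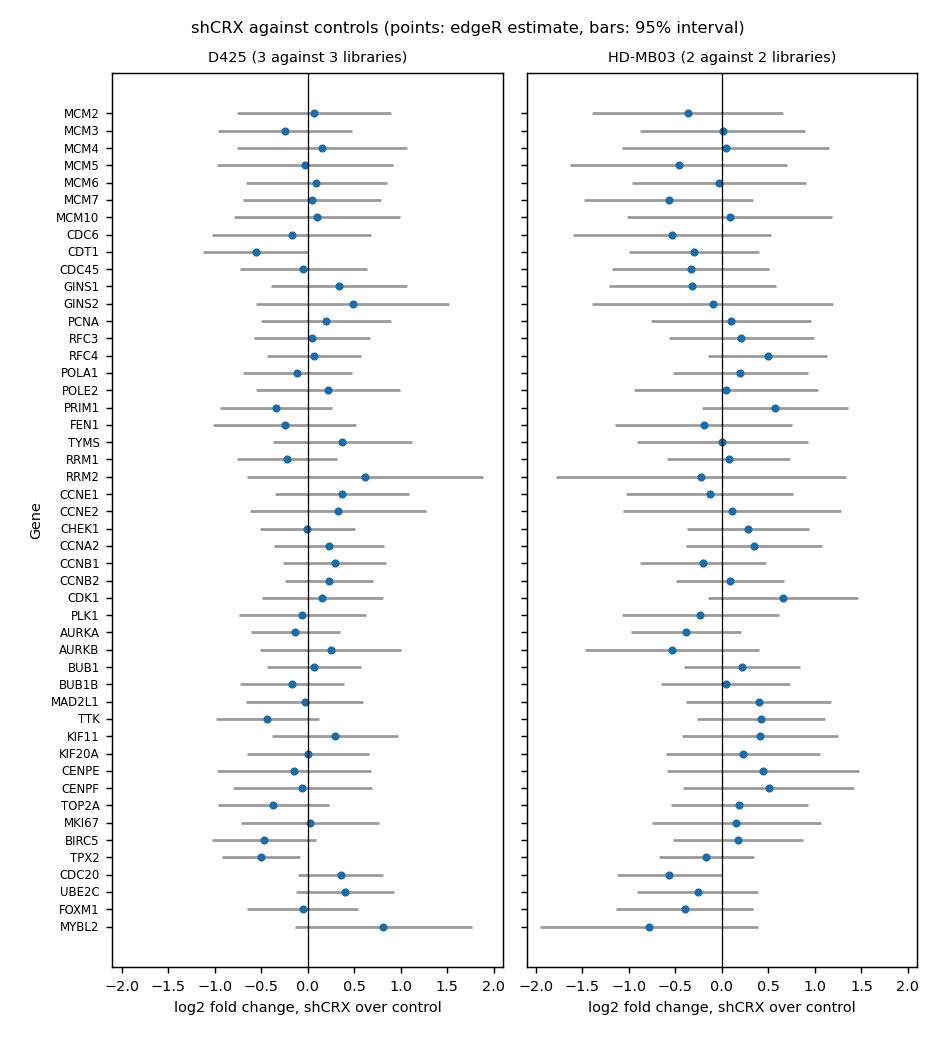
Log2 fold change of each member in libraries labelled shCRX against the controls of the line (points, edgeR estimates; bars, 95% intervals not adjusted for the number of genes), D425 on the left and HD-MB03 on the right. The members lie on both sides of 0 in each line, with medians of 0.05 and 0.04.

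The precision of these comparisons was limited by the spread between libraries. The 95% interval of a member reached 0.68 log2 units to either side in D425 and 0.84 in HD-MB03 (medians over the 48). The intervals of 35 members in D425 and 18 in HD-MB03 lay wholly within 1 log2 unit of 0, that is within a doubling or halving. In the mean of the lines those of 45 members did. That mean joins a negative CRX estimate in D425 with a positive one in HD-MB03 (CRX itself -0.03). Opposite effects of the lines cancel in it, so its intervals do not bound an effect of lower CRX.

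The lowest p in D425 was that of TPX2. Its level was 561 and 486 CPM in the parental libraries, 457 in the vector library and 292, 388 and 384 in shCRX libraries 1, 2 and 3. TPX2 was the 1 member whose D425 arms did not overlap (1 of 48, lower; 11.5% of all genes were lower and 11.5% higher without overlap), at -0.50 ± 0.19 (SE, edgeR adjusted p = 0.193). Next was CDT1, the licensing factor whose promoter is printed above, at 98.1 and 131 CPM in the parental, 86.2 in the vector and 45.5, 95.3 and 74.7 in the shCRX libraries, where the arms overlapped. Its log2 fold change was -0.56 ± 0.26 (SE, edgeR adjusted p = 0.295). With a correction for GC content and length CDT1 was called, at -1.07 (adjusted p = 0.0259).

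In HD-MB03 the lowest p was that of CDC20, the activator of the anaphase-promoting complex. It stood at 144 and 133 CPM in the 2 controls and at 81.5 and 106 in those labelled shCRX, so the arms did not overlap. The log2 fold change was -0.57 ± 0.26 (SE, edgeR adjusted p = 0.290). CDK1, the kinase of mitotic entry, went the other way, at 94.7 and 152 CPM in the parental and vector libraries and 209 and 180 in those labelled shCRX (log2 fold change 0.66 ± 0.37, SE, edgeR adjusted p = 0.389). Arms of 2 libraries separate easily: 11 members were higher without overlap and 11 lower (22.9% each), beside 30.5% and 21.8% of all genes tested.

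By role, the 4 spindle checkpoint genes and the 4 motor and kinetochore genes had positive estimates in HD-MB03 libraries labelled shCRX (medians 0.31 and 0.43), and 6 of 9 licensing genes had negative ones (median -0.30), with 0 of these 17 called. The fold changes there were correlated with base composition. Across the 48 members the Spearman correlation between the HD-MB03 log2 fold change and the GC content of the longest transcript was -0.77, against -0.36 across 15581 of the genes tested. In D425 it was 0.05 across the members and 0.28 across all genes. These are correlations across genes of the same few libraries, and genes are not independent replicates. The part of GC content in the HD-MB03 estimates was not tested for single members, and with GC content and length corrected 0 of 48 were called there.

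D425 libraries of the same arm differed more in these genes than the arms did. ShCRX library 1 was below the mean of the line for 48 of 48 members and the lowest of the 6 D425 libraries for 31, and shCRX library 2 was above it for 47 of 48 and the highest for 38. The median log2 deviation from the line mean was -0.62 in shCRX library 1, 0.64 in library 2 and 0.01 in library 3. In the controls it was 0.18 and 0.24 in the parental libraries and -0.44 in the vector library, which was the lowest for 15 members. Of all genes tested, 18.0% were lowest in shCRX library 1 and 15.8% in the vector library. In shCRX library 2, 23.5% of all genes were highest and 25.1% lowest. Over all genes tested the median deviation lay between -0.01 and 0.02 in the 6 libraries, and the scaling holds it near 0. The quartiles over all genes were -0.25 and 0.32 in shCRX library 1 and -0.37 and 0.32 in shCRX library 2.

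**Figure D2:**
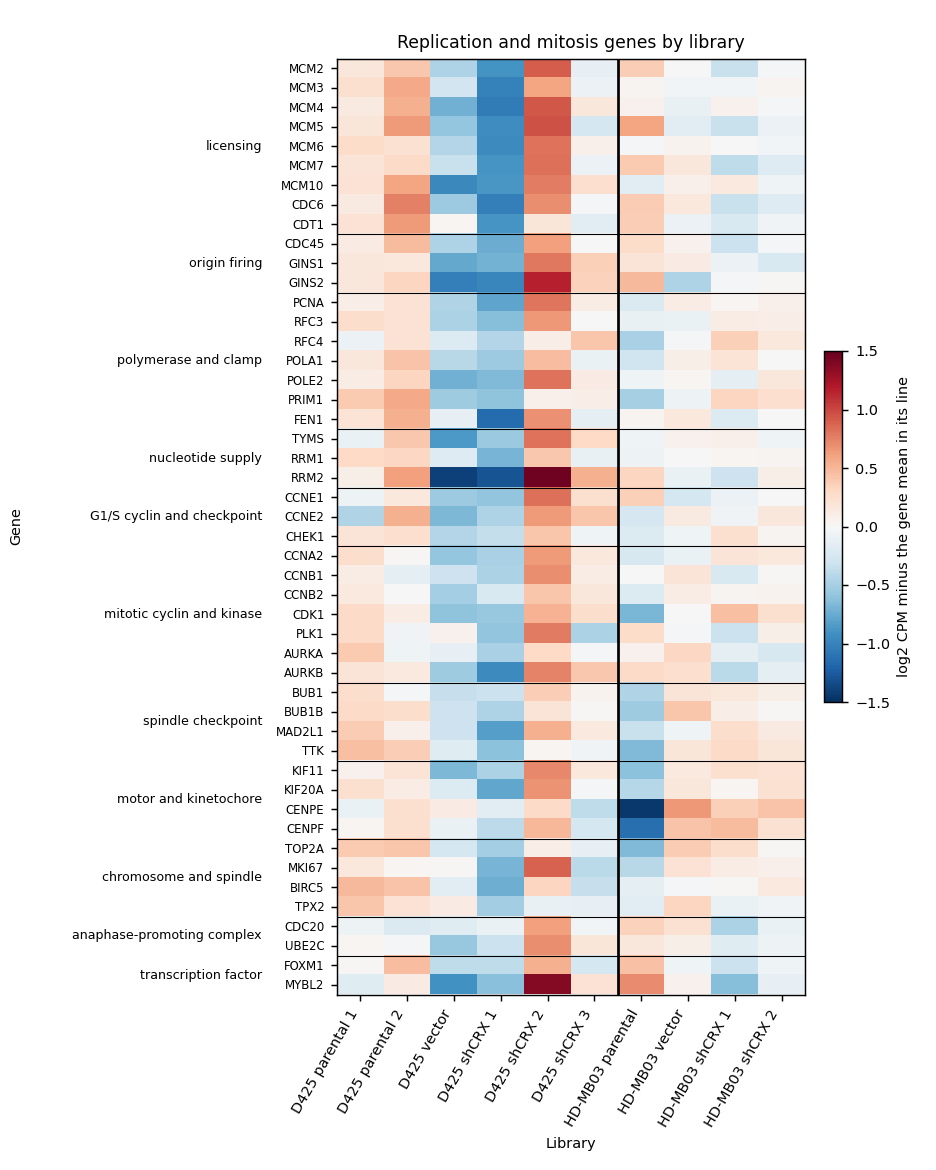
Log2 CPM of each member minus its mean over the libraries of the same line, with members in rows ordered by role and the 10 libraries in columns, D425 left of the black line and HD-MB03 right of it. In D425 most rows share 1 pattern, low in the vector and shCRX 1 libraries and high in shCRX 2, and in HD-MB03 the parental column is low for kinetochore and checkpoint genes.

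From shCRX library 1 to library 2 all 48 members went up, by a median of 1.24 on the log2 scale (2.37-fold). Of all 16006 genes tested 7597 went up, and their median, which the scaling holds near 0, was -0.03. The replication and S-phase entry genes differed by a median of 1.49 (2.81-fold, 25 of 25 up) and the mitosis genes by 1.01 (2.02-fold, 21 of 21 up). Licensing genes had the largest median among the roles with more than 3 members, 1.72, and spindle checkpoint genes the smallest, 0.66. The other genes of replication in a wider list showed the same direction for 37 of 41 (median 0.92), and those of mitosis for 51 of 54 (median 0.95). Each of these is a difference between 2 libraries, with no replicate behind it and no test. Across the 48 members the difference between shCRX libraries 2 and 1 had a Spearman correlation of 0.44 with GC content. The part of GC content in that difference was not tested.

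RRM2, the regulated subunit of ribonucleotide reductase, which makes deoxynucleotides for S phase, differed most. It stood at 83.2 and 119 CPM in the D425 parental libraries, 29.6 in the vector library and 31.7, 214 and 113 in the shCRX libraries, 6.69-fold higher in shCRX library 2 than in library 1. Its partner RRM1 stood at 192 and 195 CPM in the parental, 137 in the vector and 96.7, 207 and 145 in the shCRX libraries. Both were lowest in the vector library or shCRX library 1 and highest in shCRX library 2, over a narrower range for RRM1.

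MCM7 (ENSG00000166508.13) had the highest CPM of the licensing genes. In D425 it stood at 541 and 576 CPM in the parental libraries, 377 in the vector library and 257, 839 and 447 in the shCRX libraries. PCNA stood at 213 and 231 CPM in the parental, 146 in the vector and 115, 348 and 216 in the shCRX libraries. In both genes the shCRX arm spanned the whole range of the controls, with 498 ± 106 CPM in controls and 514 ± 297 in shCRX for MCM7 (SD, n = 3 and n = 3) and 197 ± 45.01 and 226 ± 116 for PCNA.

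The mitotic genes showed the pattern less evenly. PLK1, the kinase that acts in centrosome maturation and cytokinesis, stood at 223 and 176 CPM in the D425 parental libraries, 191 in the vector library and 122, 315 and 132 in the shCRX libraries. MAD2L1, a component of the checkpoint that holds anaphase until kinetochores attach, stood at 190 and 155 CPM in the parental, 118 in the vector and 82.6, 211 and 161 in the shCRX libraries. TOP2A, the topoisomerase that untangles chromosomes, departed from the pattern, with 834 and 846 CPM in the parental libraries, 528 in the vector library and 445, 683 and 583 in shCRX, so that its highest values were parental. MYBL2, itself an E2F target, stood at 162 and 200 CPM in the parental, 97.8 in the vector and 119, 476 and 214 in the shCRX libraries, and its shCRX libraries differed 3.99-fold.

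Within the arms of D425, the median spread of the members was larger than that of all genes between the lowest and the highest member in mean level. The median SD of log2 CPM was 0.62 among the D425 shCRX libraries, against 0.29 for the genes in that range. The range is wide and holds 10793 of the 16006 genes tested, the members included. The median SD was 0.38 against 0.22 in the D425 controls and 0.10 against 0.16 in HD-MB03 shCRX. In the HD-MB03 controls it was 0.23 against 0.26 (0.35 for the mitosis genes and 0.16 for the replication and S-phase entry genes). These are descriptions of the libraries at hand. CRX stood at 20.3, 20.9 and 25.3 CPM in D425 shCRX libraries 1, 2 and 3. Their counted reads were 9.53, 4.73 and 3.64 M in the order of the libraries. The part of depth or of the CRX level in the spread was not tested.

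**Figure D3:**
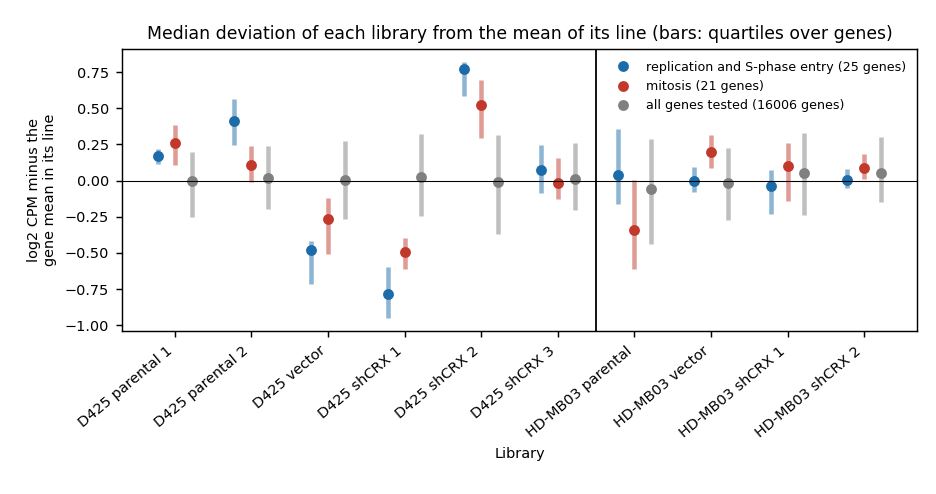
Median deviation of each library from the mean of its line in log2 CPM, for 25 replication and S-phase entry genes (blue), 21 mitosis genes (red) and all 16006 genes tested (grey), with bars from the lower to the upper quartile over genes. The blue and red medians leave 0 together in the D425 vector, shCRX 1 and shCRX 2 libraries, and part from each other in the HD-MB03 parental library.

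Empty vector and parental cells were compared as a check on pooling them. In the mean of the lines 0 of 48 members were called by edgeR (adjusted p under 0.05), as were 0% of all genes, with 2 members at an unadjusted p under 0.05 (background 5.17%) and 0 called by DESeq2 or limma-voom. The estimates were nevertheless one-sided, with 38 of 48 negative and a median of -0.26 (median of all genes 0.01), and 24 of 25 replication and S-phase entry genes were negative. In D425 the vector library was below parental library 1 for 47 of 48 members and below parental library 2 for 46, by medians of 0.62 and 0.67. Of all 16006 genes tested it was below them for 7465 and 7908. The HD-MB03 vector library was above the parental one for 30 of 48 members (median 0.12) and for 8031 of all 16006 genes tested. Each line has 1 vector library, so these are differences between single libraries, and a difference between the lines was not tested. With the vector library alone as control the median shCRX effect in D425 was 0.46, and with the parental libraries alone it was -0.13, again with 0 members called in each.

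In HD-MB03 the parental library departed from the other 3 in the mitosis genes more than in the replication genes. It was the lowest of the 4 for 15 of 21 mitosis genes (71.4%), with a median deviation of -0.34 from the line mean, where it was the lowest for 39.8% of all genes tested. Of 25 replication and S-phase entry genes it was the lowest for 9, near that background, and the highest for 11, with a median deviation of 0.04. CENPE, the kinesin that brings chromosomes to the spindle equator, stood at 34.4 CPM in the parental library, 147 in the vector library and 120 and 126 in those labelled shCRX. CENPF, a large kinetochore protein, stood at 294, 872, 899 and 754 CPM in the same order. The vector library exceeded the parental one 4.26-fold for CENPE and 2.96-fold for CENPF, and the 4 motor and kinetochore genes by a median of 1.16 on the log2 scale, whereas FOXM1 and MYBL2 were lower in the vector library, by a median of 0.57 log2 units.

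The parental library that was low for CENPE and CENPF held 2.08 M counted reads, with 30.9% of its reads not aligned. Across the 48 members the difference between the HD-MB03 vector and parental libraries had a Spearman correlation of -0.73 with GC content. Members poorer in GC thus tended to be lower in the parental library relative to the vector library, though not each of them was. The part of depth, alignment or GC content in the low values was not tested. Without the vector library, which left the parental library as the only HD-MB03 control and assumed that it varies like the other groups, CENPE was called in HD-MB03 (1.86, edgeR adjusted p = 0.0347) and for the difference between the lines (-2.02, adjusted p = 0.0272), the 1 member called in each.

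Some replication and mitosis genes were lower in D425 than in HD-MB03. Of 48 members 16 were called lower in D425 and 2 higher (edgeR adjusted p under 0.05, mean of the arms), which is 37.5% of the members beside 46.0% of all genes tested, 21.6% lower and 24.4% higher. In all 43 of 48 estimates were negative, with a median of -0.48 where the median of all genes was 0.05. The share called was thus below the background, and its split leaned to the lower side (16 to 2, against 3460 to 3905 for all genes). Within the lower library-number set (D425 shCRX against HD-MB03 controls) the median was -0.53 with 44 of 48 negative, and within the higher set (D425 controls against HD-MB03 shCRX) it was -0.49 with 41 of 48 negative.

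The count of calls moved when single libraries of either line were left out. In D425 it was 12 without the vector library, 12 without shCRX library 3 and 25 without shCRX library 2. Leaving out single HD-MB03 libraries moved it as well. It was 6 without the vector library, 9 without shCRX library 1 and 9 without shCRX library 2, while no sign of a called member was reversed in any of the 23 alternatives. The 2 members called higher in D425, PRIM1 (0.61 ± 0.23, SE, adjusted p = 0.0459), the primase subunit, and CHEK1 (0.52 ± 0.19, SE, adjusted p = 0.0426), the replication stress kinase, each lost the call in 14 of 23. PRIM1 and CHEK1 overlap a neighbour on the same strand (NACA and STT3A), as BUB1B, called lower, overlaps the readthrough gene BUB1B-PAK6. The strand setting of the counting is not given in the sources used here. FOXM1, TYMS and CCNE2, called lower, overlap genes on the opposite strand (ITFG2 and RHNO1, ENOSF1, and INTS8). CENPF and KIF11, also called lower, overlap pseudogenes on the opposite strand, and PCNA a small nucleolar RNA gene on its own strand. Whole gene spans were compared and not exons, so the counts of all these members are uncertain.

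**Figure D4:**
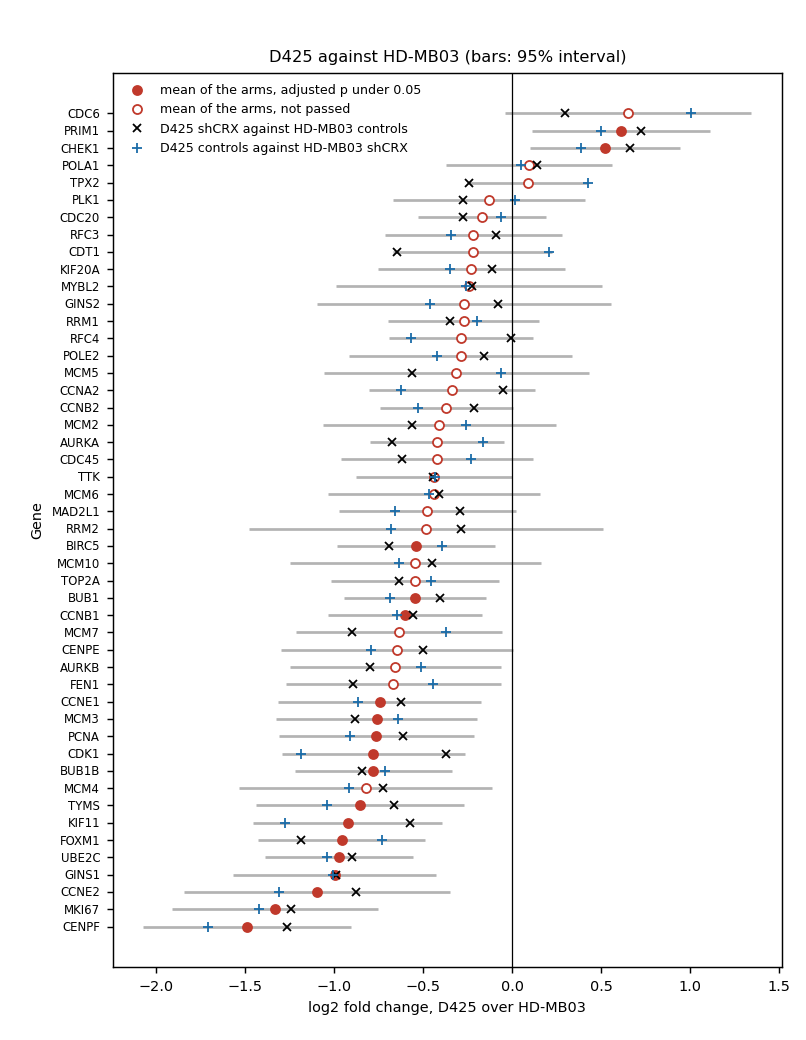
Log2 fold change of D425 over HD-MB03 for each member (circles, mean of the arms, filled where the adjusted p was under 0.05; bars, 95% intervals), with the values within the lower library-number set as black crosses and within the higher set as blue plus signs. Of the 48 circles 43 lie left of 0, and CENPF, MKI67 and CCNE2 lie farthest out.

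CENPF (ENSG00000117724.8) had the lowest p of the line comparison. It stood at 246 and 285 CPM in the D425 parental libraries, 226 in the vector library and 184, 341 and 202 in shCRX, and at 294, 872, 899 and 754 in HD-MB03. The log2 fold change was -1.49 ± 0.27 (SE, edgeR adjusted p = 0.000797), -1.27 within the lower number set and -1.71 within the higher. The lines overlapped through the HD-MB03 parental library, which lay below D425 shCRX library 2.

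MKI67 (ENSG00000148773.8), the Ki-67 antigen that coats mitotic chromosomes, separated the lines fully. It was expressed at 286 and 262 CPM in the D425 parental libraries, 260 in the vector library and 158, 473 and 194 in shCRX, and at 510, 790, 735 and 713 in HD-MB03 parental, vector and shCRX libraries 1 and 2. All 4 HD-MB03 libraries were above all 6 of D425, and the log2 fold change was -1.33 ± 0.27 (SE, edgeR adjusted p = 0.00158). UBE2C, the ubiquitin-conjugating enzyme that works with the anaphase-promoting complex, likewise did not overlap, with 72.8 and 70.4 CPM in the D425 parental, 48.4 in the vector and 57.2, 116 and 81.1 in the shCRX libraries against 162, 153, 127 and 137 in HD-MB03. Its log2 fold change was -0.97 ± 0.19 (SE, edgeR adjusted p = 0.00124).

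FOXM1, the forkhead factor of G2 phase, was called lower in D425 as well. Its levels were 99.8 and 136 CPM in the D425 parental libraries, 75.8 in the vector library and 75.7, 142 and 82.1 in shCRX, and 267, 188, 156 and 188 in HD-MB03, again without overlap. The log2 fold change was -0.96 ± 0.22 (SE, edgeR adjusted p = 0.00304). MYBL2 was not called (-0.24, and 0.14 with both HD-MB03 controls left out), and its levels overlapped, with 384, 247, 151 and 216 CPM in HD-MB03 beside 97.8 to 476 in D425. CENPF, MKI67, UBE2C and FOXM1 were called in all 23 alternatives.

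The other members with the 8 lowest p were GINS1, BUB1B, KIF11 and CDK1. GINS1, of the complex that joins the helicase when an origin fires, stood at 61.5 and 60.9 CPM in the D425 parental, 32.0 in the vector and 33.2, 93.9 and 69.8 in the shCRX libraries, and at 132, 127, 109 and 98.5 in HD-MB03 (-1.0 ± 0.26, SE, edgeR adjusted p = 0.00837). The lines did not overlap for it. BUB1B, the checkpoint kinase BubR1, stood at 123 and 121 CPM in the D425 parental, 80.8 in the vector and 73.0, 114 and 102 in the shCRX libraries, and at 118, 227, 183 and 172 in HD-MB03 (-0.78 ± 0.20, SE, edgeR adjusted p = 0.00726).

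KIF11, the kinesin that pushes the spindle poles apart, stood at 83.4 and 91.6 CPM in the D425 parental, 49.9 in the vector and 57.0, 131 and 88.5 in the shCRX libraries, and at 101, 172, 184 and 180 in HD-MB03 (-0.93 ± 0.24, SE, edgeR adjusted p = 0.0085). CDK1 stood at 106 and 93.6 CPM in the D425 parental, 57.0 in the vector and 58.3, 124 and 104 in the shCRX libraries, beside the HD-MB03 values given above (-0.78 ± 0.24, SE, edgeR adjusted p = 0.0169). For BUB1B, KIF11 and CDK1 the HD-MB03 parental library lay within the D425 range and the other 3 above it. The estimates for KIF11 and CDK1 were larger in the higher number set (-1.28 and -1.19) than in the lower (-0.57 and -0.37), and the lower set holds that library.

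The remaining 8 called members, all lower in D425, were CCNE2 and CCNE1, the E cyclins of S-phase entry (-1.10 and -0.74), TYMS, which makes thymidylate (-0.86), PCNA (-0.76), MCM3 (-0.76), CCNB1, cyclin B1 (-0.60), BUB1, the checkpoint kinase (-0.55), and BIRC5, survivin (-0.54). In HD-MB03 PCNA stood at 307, 386, 365 and 377 CPM and overlapped D425 through shCRX library 2. MCM7 was not called by edgeR, with HD-MB03 levels of 1033, 886, 602 and 689 CPM, and overlapped D425 through shCRX library 2 at 839. RRM1, at 186, 195, 199 and 201 CPM in HD-MB03, PLK1, at 253, 205, 167 and 223, MAD2L1, at 168, 203, 254 and 233, and TOP2A, at 578, 1196, 1095 and 927, were not called by edgeR either. DESeq2 called MCM7 (-0.65, adjusted p = 0.0395) and TOP2A (-0.56, adjusted p = 0.0342) lower in D425. Without overlap 7 members were lower in D425 (14.6%, background 13.8%) and 0 higher (background 15.3%).

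**Figure D5:**
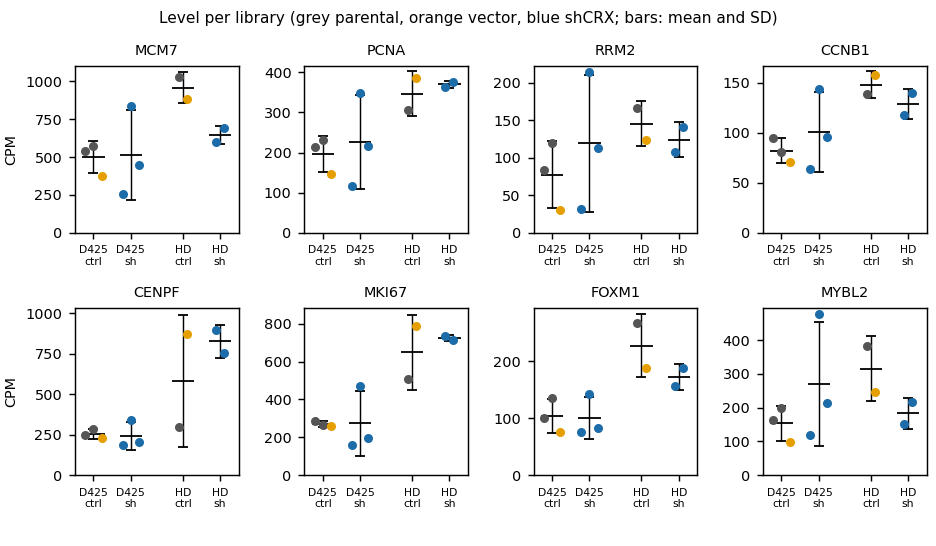
CPM per library for 8 members (grey, parental; orange, empty vector; blue, labelled shCRX; bars, mean and SD of the arm), in panels that each start at 0. In MCM7 and PCNA the D425 shCRX libraries hold both the lowest and the highest value of the line, in RRM2 and MYBL2 they hold the highest while the vector library is lowest, and in MKI67 and FOXM1 all HD-MB03 libraries lie above those of D425.

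By role, the estimates between the lines leaned to the lower side in each larger group, and no test compared the groups. The replication and S-phase entry genes had a median of -0.42 (6 of 25 called lower, 2 higher) and the mitosis genes a median of -0.55 (9 of 21 called lower, 0 higher), beside 21.6% lower and 24.4% higher over all genes, so the replication count is near the background. The 4 motor and kinetochore genes had the lowest median among the larger roles, -0.79. Licensing genes had a median of -0.44 with 1 of 9 called, MCM3, and CDC6 had the highest estimate of all members, 0.65, not called here but called without D425 shCRX library 1 (0.87).

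In wider lists of the same pathways 1 gene was called under shCRX. Of 41 further replication genes, 18 cell cycle transcription factors and cofactors and 8 CDK inhibitors, 0 were called in D425 or HD-MB03. Of 54 further mitosis genes 0 were called in D425 and 1 in HD-MB03, UBE2S. Over all genes tested 2.97% were called in D425 and 1.51% in HD-MB03, so these counts are near the background. UBE2S extends ubiquitin chains on substrates of the anaphase-promoting complex after UBE2C starts them. In HD-MB03 UBE2S stood at 388 and 307 CPM in the controls and at 77.0 and 93.3 in those labelled shCRX (-2.03 ± 0.32, SE, edgeR adjusted p = 0.0108). The call was lost in 5 of 20 alternatives, among them those without the HD-MB03 parental library and without either HD-MB03 shCRX library. UBE2C was not called in HD-MB03 (153 and 162 CPM in the controls, 127 and 137 in shCRX).

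Between the lines, 28 of the 54 further mitosis genes were called lower in D425 and 1 higher, KIF4A (0.67). The background was 21.6% lower and 24.4% higher. The lowest p were those of DLGAP5 (-2.53), a spindle protein, BUB3 (-0.97), a checkpoint partner of BUB1, HJURP (-1.21), which deposits the centromeric histone, and ASPM (-1.41), of the spindle poles. Of the 41 replication genes 9 were called lower and 3 higher, with a median of -0.22 over the list. The count called lower is near the background and the count called higher is below it, and neither was tested against it. WDHD1, which ties the helicase to DNA polymerase alpha, was the farthest apart, at 28.7 to 50.4 CPM in D425 and 190 to 263 in HD-MB03 (-2.58 ± 0.18, SE, edgeR adjusted p = 2.061e-07), followed by DUT, which clears dUTP (-1.14). RPA2, of the single-strand binding complex (0.97), RFC1, the large clamp loader subunit (0.99), and TIMELESS, of the fork protection complex (0.67), were the 3 higher in D425.

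Some regulators of the cell cycle differed between the lines too. Of 18 cell cycle transcription genes 9 were called lower in D425 and 2 higher, where 21.6% of all genes were called lower and 24.4% higher. E2F1, an activator of S-phase genes, stood at 37.2 to 144 CPM in D425 and 227 to 327 in HD-MB03 (-1.58 ± 0.29, SE, edgeR adjusted p = 0.00114), with E2F3 (-0.91) and the late-phase repressor E2F8 (-1.98) also lower, and the repressor E2F6 (0.84) and the MuvB subunit LIN54 (0.71) higher. Of 8 CDK inhibitors 4 were called lower in D425 and CDKN2D (1.25) higher, the latter lost in 5 of 23 alternatives, among them those without the HD-MB03 parental library and without HD-MB03 shCRX library 1. CDKN1A, p21, stood at 0.672 to 13.8 CPM in D425 and 64.2 to 117 in HD-MB03, CDKN1B, p27, at 30.5 to 56.0 and 102 to 141, and CDKN2C, p18, at 16.0 to 32.7 and 48.2 to 101. CDKN1C, p57, was at most 0.512 CPM in D425, near the level of a few counts, and 3.22 to 24.98 in HD-MB03.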

How the data were processed

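The authors deposited unnormalised HTSeq read counts per gene, 1 table per library. The submitters' processing notes name HISAT2, HTSeq, bcl2fastq and DESeq2 and the build GRCh37 (hg19), and versions and strand setting are not given in the sources used here. Per the labels' protocols, poly(A) RNA was sequenced. HTSeq's summary entries stayed out of library sizes and tests, and 50.5% to 79.3% of reads were counted in genes. No 2 libraries were identical (0 pairs).

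The counts were fitted with edgeR 4.0.16 in R 4.3.3 (TMM, filterByExpr, robust quasi-likelihood fit of 4 groups of line and arm, 6 residual degrees of freedom, biological coefficient of variation 26.0%), or 6 groups and 4 degrees of freedom for vector against parental. Tests were two-sided, adjusted by Benjamini-Hochberg over 16006 genes, and called under 0.05. CPM divides counts by the effective library size, and log2 CPM of single libraries adds a prior count of 2, which makes ratios between libraries slightly smaller. RPKM uses the union of exons in GENCODE, a GRCh38 annotation, which also supplied the GC content of the longest transcript and the overlaps between genes. Symbols came from a separate list of gene names (51996 of 57820 identifiers). Alternatives were limma-voom (limma 3.58.1), DESeq2 1.42.0, other scalings and filters, GC and length correction (mgcv 1.9.3), thinning to 1956353 reads, other controls, a replicate block and leaving out libraries. Leaving out both HD-MB03 controls, and refitting the 8 libraries of the block without it, were added after seeing the data. Fits were tested on simulated data. The members and lists were chosen with earlier results of these data known.

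Values in every library are given for the 8 called members with the lowest p, the member with the highest CPM in each of 6 roles, and FOXM1, MYBL2, PCNA, MKI67 and TOP2A. TPX2, CDT1, CDC20, RRM2 and CENPE were added after their values were seen. Up to 4 called genes of each further list are named, and all where 5 or fewer were called in a direction.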

Additional observations from a re-analysis of the deposited data

Results flagged for a closer look

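The log2 effect of shCRX on CRX itself was not the same in the lines (difference -2.14, D425 minus HD-MB03, edgeR adjusted p = 0.0199), with lower levels in D425 shCRX and higher ones in HD-MB03 shCRX. The CRX difference lost its call in 8 of 22 alternatives, among them those that left out 1 HD-MB03 library, either control (-2.18 without parental, -2.17 without vector) or shCRX library 1 (-2.03). UBE2S differed by 2.68 (edgeR adjusted p = 0.00402): its level was 63.9 to 69.1 CPM in D425 controls and 60.9 to 138 in D425 shCRX, and 307 to 388 in HD-MB03 controls and 77.0 to 93.3 in the libraries labelled shCRX. The UBE2S difference lost its call in 1 of 22 alternatives. For RFC1, the large subunit of the clamp loader, all 3 D425 shCRX libraries (208 to 261 CPM) lay below all 3 controls (272 to 446), and both HD-MB03 libraries labelled shCRX (162 and 159) lay above both controls (107 and 147). The difference for RFC1 was -0.92 and did not pass (edgeR adjusted p = 0.142), and passed without a filter on low counts (-1.05). For all 3 genes the line and arm groups also follow the library-number sets, so the set and the difference between the lines cannot be told apart.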

How the results depend on the processing

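Of the fold changes recomputed for named genes, those of the called genes kept their sign, and MYBL2, not called between the lines, went from -0.24 to 0.14 with both HD-MB03 controls left out. Members called under shCRX stayed at 0 in D425 except 1 (CDT1) with GC content and length corrected, and the median there ran from -0.37 to 0.29 with 1 library left out and was 0.46 with vector controls alone. In HD-MB03 and for the difference between the lines, 0 to 1 members were called with 1 library left out (CENPE, without the HD-MB03 vector library). The median difference ran from -0.42 (without D425 shCRX library 2) to 0.30 and was 0.58 with vector controls alone. Vector against parental cells gave 1 member without a filter on low counts (CENPE). The 18 members called between the lines were 7 with parental controls alone, 6 to 25 with 1 library left out, and 12 with both HD-MB03 controls left out. Where 1 library stands alone in an arm it is assumed to vary like the other groups. Scaling by library totals moved the median of all genes from 0.02 to 0.15 in D425 and from 0.05 to 0.16 between the lines, beside members at 0.15 and -0.38.

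Same-numbered D425 libraries of parental and shCRX cells have no stated link beyond the number, with a correlation of 0.01 across genes between their differences. With the replicate block, on 8 libraries, 19 members were called between the lines, 13 of them among the 18, against 10 on the same 8 libraries without it, and under shCRX the block left 0 members called. Depth limits CCNE2 most, with 11 counts in 1 library.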
